A study of Homo sapiens with 5 samples.

Results

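The enzymes described here make serine from glucose carbon and pass a carbon of it on to folate. They are 9 genes, chosen by name and with earlier results of these data known: PHGDH, PSAT1 and PSPH of serine synthesis, the serine hydroxymethyltransferases SHMT1 and SHMT2, and the folate enzymes MTHFD1, MTHFD2, MTHFD1L and ALDH1L2. All 9 had a probe of their own among the 18417 genes measured. The samples are 5 whole-transcript arrays of RS4.11, a human leukemia line that carries a rearranged MLL gene. Cells on 3 arrays had received 10 uM SB216763, which inhibits GSK-3 kinases, for 20 h. Cells on 2 arrays had received its solvent DMSO over the same time and are called control. All are of a single line, and separate cultures are not stated, so the p-values describe the array-to-array spread alone, which may be technical.

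Serine is built from a glycolytic intermediate in a short pathway. PHGDH oxidises phosphoglycerate, PSAT1 adds the amino group, and PSPH removes the phosphate. Serine hydroxymethyltransferases then split serine into glycine and a folate-bound carbon unit, SHMT1 in the cytosol and SHMT2 in mitochondria. In mitochondria MTHFD2 oxidises that unit, and MTHFD1L releases it as formate, which leaves for the cytosol. There MTHFD1, an enzyme with several activities on a single chain, puts formate back on folate for purine and thymidylate synthesis. ALDH1L2 oxidises formyl folate to carbon dioxide in mitochondria and makes NADPH. Dividing cells draw on this route for nucleotides, and MTHFD2 is low in most adult tissues but high in many tumours and in leukemia cells.

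The values are log2 expression values, and every difference is SB216763 minus control on that scale, from limma, with p-values adjusted over all 18417 genes and a threshold of 0.05. Levels of different genes come from different probes and are not compared with one another. Array medians lay between 6.77 and 6.84. The background of an array, taken as the 95th percentile of 341 olfactory receptor genes, lay between 5.98 and 6.19, and all 9 enzymes were above it on all 5 arrays. Of all genes, 1328 were higher and 1090 lower with SB216763. The share of these calls that were higher was 54.9%, and 40.6% after median centring of the arrays. RS4.11 is commonly classed with B cell precursor leukemias. Of 8 measured B cell precursor markers, CD79B, PAX5 and IGLL1 were above background on all arrays and VPREB1, DNTT and CD24 on none. All 6 measured myeloid markers, LYZ and MPO among them, were above it on all arrays. The myeloid markers MPO (6.10 to 6.54) and CD14 (6.14 to 6.59) lay close to the background, however. So did PAX5 (6.55 to 6.82) and CD79B (6.56 to 6.87). The mean over the measured myeloid markers was 8.43 to 8.55 on SB216763 arrays, against 8.16 to 8.23 on control arrays, with LYZ (12.70 with SB216763, 11.92 in control) and CSF3R (8.96 with SB216763, 7.73 in control) higher and MPO lower (6.21 with SB216763, 6.44 in control). The mean over the B cell precursor markers was 6.28 to 6.38 on SB216763 arrays, against 6.18 on both control arrays. Of these, BLNK was 6.79 with SB216763 and 5.50 in control, above background on the SB216763 arrays alone, while IGLL1 was 8.10 with SB216763 and 8.43 in control. Of 6 T and NK cell markers, CD7 and NKG7 were above background on all arrays and CD3D, CD3E, CD3G and CD2 on none, and their mean was 6.71 to 6.82 on SB216763 arrays, against 6.65 to 6.70 on control arrays, with NKG7 at 11.31 with SB216763 and 10.44 in control. Of 3 measured erythroid markers 1 was above background on all arrays, and their mean was 6.43 to 6.71 on SB216763 arrays, against 6.70 to 6.96 on control arrays. The part of any shift in cell makeup in the results was not tested. In bulk RNA, fewer cells of a type and less RNA per cell cannot be told apart.

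With SB216763, MTHFD2, ALDH1L2 and PHGDH rose, and PSAT1 and MTHFD1 fell. PSPH, SHMT1, SHMT2 and MTHFD1L did not pass the test. The enzymes thus did not move in one direction: 3 of 9 were called higher, where 7.21% of all genes were, and 2 of 9 lower, where 5.92% of all genes were. Calls in either direction took in 5 of the 9, beside 13.1% of all genes. Of all genes, however, 5270 were above background on no array. With a filter on dim genes, 3083 of 12856 genes were called, and again 3 enzymes were higher and 2 lower. The median of the 9 differences was -0.07, beside 0.003 for all genes. The groups did not overlap for 6 of the 9, as they did not for 41.4% of all genes. At an unadjusted p under 0.05, 3 of the 9 were higher and 2 lower, beside 26.5% of all genes in either direction. The calls rest on both control arrays. Leaving out control replicate 1 left 0 of the 9 called by limma, as it left 0.00543% of all genes, and leaving out control replicate 2 left 0 of the 9 and 0% of all genes. An unadjusted p under 0.05 was still met by 3 higher and 2 lower enzymes in each case, beside 19.6% of all genes when control replicate 1 was left out and 21.5% when control replicate 2 was.

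**Figure D1:**
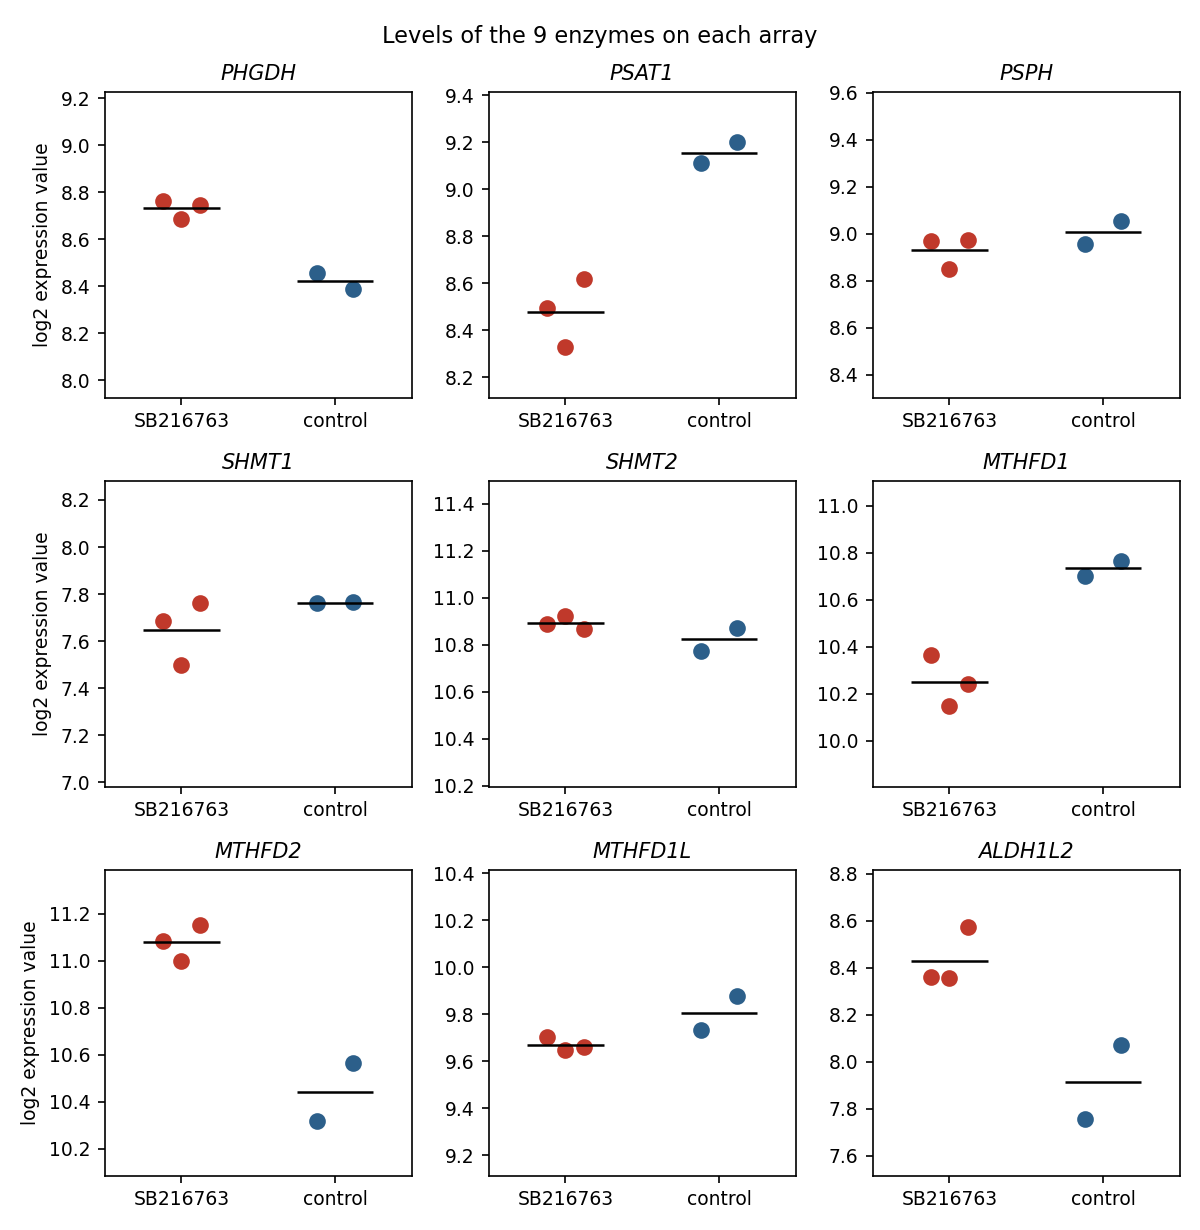
Each panel plots the log2 expression value of 1 gene on the 3 SB216763 arrays (left) and the 2 control arrays (right), with the group mean as a line, over a range of equal height. The SB216763 points of MTHFD2, ALDH1L2 and PHGDH lie above both control points, and those of PSAT1, MTHFD1 and MTHFD1L below both.

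Serine synthesis split within its own 3 steps. PHGDH, the enzyme of the first step, had log2 values of 8.76, 8.68 and 8.75 on SB216763 arrays, against 8.45 and 8.39 on control arrays. All 3 SB216763 values lay above both control values, and PHGDH rose by 0.31 (SE 0.08, adjusted p = 0.0387), 1.24-fold. This was the smallest of the 5 called differences, and the call did not pass in 8 of 14 other settings, among them each array centred on its median, the replicate number as a block, and leaving out SB216763 replicate 1, SB216763 replicate 3 or either control array. The difference ran from 0.26 to 0.34 over the 14, some of which change only the error or the adjustment and cannot alter it. The block fit gives the same difference as leaving out SB216763 replicate 3, since no control array shares that number. A further probe that names both MZT2B and PHGDH was not used. It read 10.40, 10.56 and 10.46 on SB216763 arrays, against 10.53 and 10.02 on control arrays. Its groups overlapped, with a difference of 0.20 (SE 0.16, adjusted p = 0.563 with every probe tested singly).

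PSAT1, the aminotransferase of the next step, went the other way. Its values were 8.49, 8.33 and 8.62 on SB216763 arrays, against 9.11 and 9.20 on control arrays. The groups were well apart, and PSAT1 fell by 0.67 (SE 0.10, adjusted p = 0.00626), to 0.627 of the control level. Only 1.11% of all genes had a difference as low or lower. The call was lost without either control array and in the fit without moderation, and held in the other 11 settings, with differences from -0.74 to -0.60 over all 14.

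PSPH, the phosphatase that completes serine, had values of 8.97, 8.85 and 8.98 on SB216763 arrays, against 8.96 and 9.06 on control arrays. The groups overlapped, and the difference was -0.07 (SE 0.08, adjusted p = 0.664). Its 95% interval ran from -0.27 to 0.12. A further probe named for PSPH read 8.27, 8.36 and 8.09 on SB216763 arrays, against 8.15 and 8.45 on control arrays, with a difference of -0.06 (SE 0.13, adjusted p = 0.856 with every probe tested singly). RefSeq names 1 pseudogene of PSPH and 4 of PSAT1, so which copy a probe measured is uncertain for both genes.

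**Figure D2:**
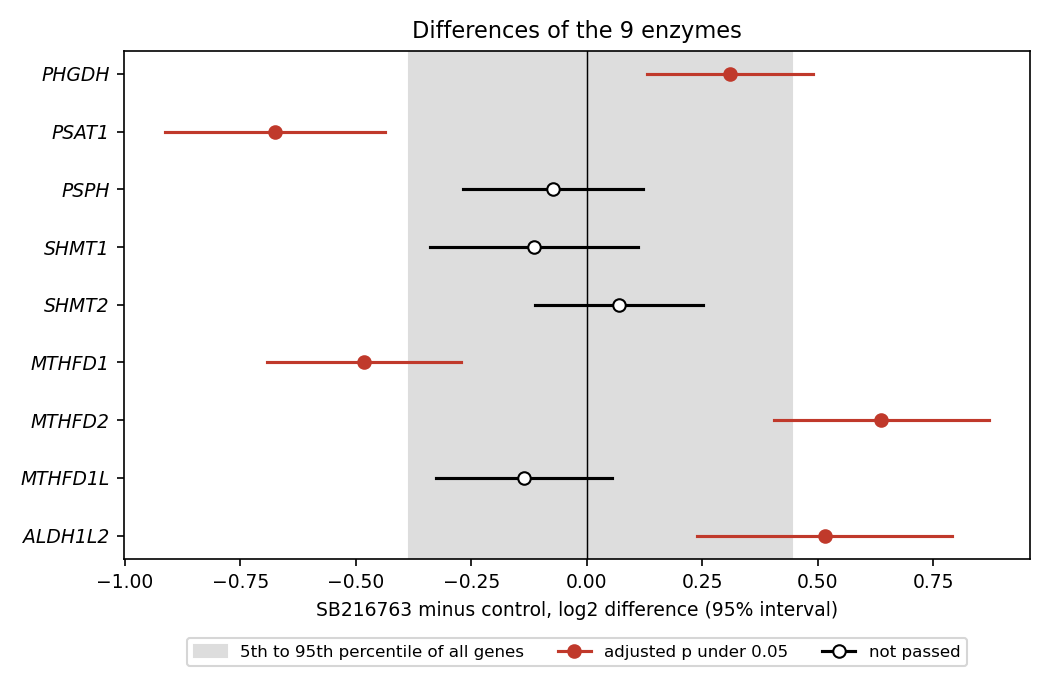
Points are the SB216763 minus control log2 differences of the 9 enzymes with 95% intervals from limma, filled where the adjusted p was under 0.05, over a grey band from the 5th to the 95th percentile of all genes, -0.38 to 0.44. MTHFD2 and ALDH1L2 lie to the right of the band and PSAT1 and MTHFD1 to its left, while PHGDH lies inside it.

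The serine hydroxymethyltransferases did not pass in either compartment. SHMT2, the mitochondrial enzyme, had values of 10.89, 10.92 and 10.87 on SB216763 arrays, against 10.77 and 10.87 on control arrays, a difference of 0.07 (SE 0.08, adjusted p = 0.656). SHMT1, its cytosolic counterpart, had 7.69, 7.50 and 7.76 on SB216763 arrays, against 7.76 and 7.76 on control arrays, a difference of -0.11 (SE 0.10, adjusted p = 0.533). The groups overlapped for both, and the 95% intervals of the differences were -0.11 to 0.25 for SHMT2 and -0.34 to 0.11 for SHMT1. RefSeq names 1 pseudogene of SHMT1.

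Among the folate enzymes the largest increase was in MTHFD2, the mitochondrial dehydrogenase and cyclohydrolase. It had values of 11.08, 11.00 and 11.15 on SB216763 arrays, against 10.32 and 10.56 on control arrays. The groups did not overlap although the control arrays differed from each other by more than the SB216763 arrays did. MTHFD2 rose by 0.64 (SE 0.10, adjusted p = 0.00714), 1.56-fold, which put it at the 98.0th percentile of all signed differences. The difference was 0.51 without control replicate 1 and 0.76 without control replicate 2, and neither passed (adjusted p = 0.102 and 0.0652).

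MTHFD2 has a second probe of its own on the array. This probe read 10.32, 10.04 and 10.29 on SB216763 arrays, against 9.56 and 9.64 on control arrays, again without overlap. Its difference was 0.62 (SE 0.11, adjusted p = 0.0376 with every probe tested singly), close to that of the first probe, 0.64 (SE 0.10, adjusted p = 0.0311) in the same test. RefSeq names 7 pseudogenes of MTHFD2, and which copies the probes read is uncertain.

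ALDH1L2, the mitochondrial formyl folate dehydrogenase, had values of 8.36, 8.36 and 8.57 on SB216763 arrays, against 7.76 and 8.07 on control arrays. All SB216763 values were above both control values, which lay further apart than those of any other of the 9 enzymes. ALDH1L2 rose by 0.51 (SE 0.12, adjusted p = 0.0290), 1.43-fold. The call did not pass in 6 of 14 other settings, with adjusted p = 0.0753 without SB216763 replicate 1, 0.0773 without SB216763 replicate 3, 0.231 without control replicate 1 and 0.0885 without control replicate 2. Differences over the 14 settings ran from 0.36 to 0.67.

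MTHFD1L, which releases formate in mitochondria, had values of 9.70, 9.65 and 9.66 on SB216763 arrays, against 9.74 and 9.88 on control arrays. The groups did not overlap, but by a small margin, and the difference of -0.14 (SE 0.08) did not pass (adjusted p = 0.352). The 4 other probes that name MTHFD1L each name several genes, were not used for it, and differed by -0.02 to 0.03.

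MTHFD1, the cytosolic enzyme that takes formate up again, had values of 10.36, 10.15 and 10.24 on SB216763 arrays, against 10.70 and 10.76 on control arrays. The groups did not overlap, and MTHFD1 fell by 0.48 (SE 0.09, adjusted p = 0.0137), to 0.716 of the control level. Only 3.01% of all genes had a difference as low or lower. As with PSAT1, the call held in 11 of 14 settings and was lost without either control array and in the fit without moderation, and the difference stayed between -0.54 and -0.38. RefSeq names 1 pseudogene of MTHFD1.

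The opposite calls of MTHFD2 and MTHFD1 can be read on each array as the log2 value of the mitochondrial enzyme's probe minus that of the cytosolic enzyme's probe. Since probes differ in how they bind, only the change of this quantity between groups carries information. MTHFD2 minus MTHFD1 was 0.72, 0.85 and 0.91 on SB216763 arrays, against -0.38 and -0.20 on control arrays. The mean was 0.83 ± 0.10 (SD, n = 3) with SB216763 and -0.29 ± 0.13 (SD, n = 2) in control, a difference of 1.12. MTHFD1L minus MTHFD1 was -0.58 ± 0.08 (SD, n = 3) with SB216763 and -0.93 ± 0.06 (SD, n = 2) in control, a difference of 0.35, and the groups did not overlap. SHMT2 minus SHMT1 was 3.24 ± 0.16 (SD, n = 3) with SB216763 and 3.06 ± 0.07 (SD, n = 2) in control, a difference of 0.18, with overlapping groups. The two-sided exact permutation p was 0.2 for each of the pairs with MTHFD1, the smallest value that 3 arrays against 2 can give, and 0.4 for SHMT2 and SHMT1; adjusted over the 3 pairs the values were 0.3, 0.3 and 0.4. This test therefore cannot pass the threshold with 3 arrays against 2, whatever the size of a difference.

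The arrays also differed within groups. Of the 3 SB216763 arrays, replicate 2 held the lowest value for 8 of the 9 enzymes, as it did for 48.1% of the 12071 genes above background on all arrays. Of the control arrays, replicate 1 held the lower value for 8 of the 9, as it did for 69.1% of those genes. The exceptions were SHMT2 among the SB216763 arrays and PHGDH among the control arrays.

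RefSeq promoter windows of assembly GRCh38.p14 were matched for 6 of the 9 genes. The 250 bases before the start are given for the 4 called genes among them, the pair that rose and then the pair that fell, so that their motif content can be set side by side; capitals mark matches to the CCAAT box (CCAAT) or to the E-box bound by MYC and its partners (CACGTG). All are on the plus strand, at chr2:74198365-74198614 for MTHFD2, chr1:119711684-119711933 for PHGDH, chr9:78296875-78297124 for PSAT1 and chr14:64388103-64388352 for MTHFD1.
MTHFD2: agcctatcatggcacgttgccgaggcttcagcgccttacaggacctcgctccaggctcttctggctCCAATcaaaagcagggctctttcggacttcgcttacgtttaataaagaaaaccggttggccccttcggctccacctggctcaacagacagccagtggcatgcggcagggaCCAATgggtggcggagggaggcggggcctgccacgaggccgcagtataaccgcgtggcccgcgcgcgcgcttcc
PHGDH: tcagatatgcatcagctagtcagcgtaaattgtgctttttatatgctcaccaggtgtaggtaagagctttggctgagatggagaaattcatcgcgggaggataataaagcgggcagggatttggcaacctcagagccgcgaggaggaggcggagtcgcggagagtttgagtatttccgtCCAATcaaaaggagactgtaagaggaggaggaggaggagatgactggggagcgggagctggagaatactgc
PSAT1: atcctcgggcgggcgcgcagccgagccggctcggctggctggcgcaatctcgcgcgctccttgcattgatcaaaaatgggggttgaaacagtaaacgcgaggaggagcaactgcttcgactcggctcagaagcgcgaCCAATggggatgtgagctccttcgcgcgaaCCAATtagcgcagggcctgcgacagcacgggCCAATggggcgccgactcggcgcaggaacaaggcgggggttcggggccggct
MTHFD1: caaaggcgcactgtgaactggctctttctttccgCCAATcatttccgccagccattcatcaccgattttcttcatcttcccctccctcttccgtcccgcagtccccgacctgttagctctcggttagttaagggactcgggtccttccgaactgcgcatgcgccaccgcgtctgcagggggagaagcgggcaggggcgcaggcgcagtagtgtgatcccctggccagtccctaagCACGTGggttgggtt

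Both strands were searched, matches of different motifs did not overlap in these windows, and the E-box reads the same on both strands. The CCAAT box stood 2 times before MTHFD2, 1 time before PHGDH, 3 times before PSAT1 and 1 time before MTHFD1, so it was in all 4 windows, whichever way the gene moved. SHMT1 and MTHFD1L, the other matched genes, did not pass and had a CCAAT box as well. The box is thus not particular to the called genes. It was in 32.01% of 35116 windows of this length from all genes in the table. Among the 4 windows shown, an E-box was found before MTHFD1 only, 15 to 10 bases before the start. Of all windows, 6.34% held one. The C/EBP-ATF response element TGATGNAAN, the composite site through which ATF4 acts on many genes of amino acid supply, was in none of these 4 windows and in 3.13% of all windows. Among the 6 matched genes it was found for MTHFD1L alone, whose difference did not pass. The 30 bases at chr6:150866347-150866376, plus strand, are shown because they hold that match, in capitals; it lies before 2 of the 4 starts listed for the gene, which also have an E-box, and after an earlier start.
MTHFD1L: ccgccggctcTGATGCAATcgcgccgggcg
A match to a motif is a description of the letters, and binding of any factor was not measured. The transcripts of MYC and ATF4 themselves differed by -1.05 (SE 0.08, adjusted p = 0.000588) and -0.06 (SE 0.08, adjusted p = 0.729). MYC, too, was not called without control replicate 1 (adjusted p = 0.0572) or control replicate 2 (adjusted p = 0.0557), and the difference of ATF4 was 0.01 without control replicate 2.

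Around the 9 enzymes, 68 further genes of the pathway were grouped in 7 lists by role, and 59 were measured with a probe of their own. The others were not analysed here. The lists were chosen with earlier results of these data known, so their share of calls beside that of all genes is a description, not a test. Of the 59, 3 were higher, 10 lower and 46 did not pass, 22.0% called beside 13.1% of all genes, with a median difference of -0.04. With the filter on dim genes, 4 were higher and 12 lower, where 3083 of 12856 genes were called. Leaving out either control array left 0 of the 59 called by limma. Over all 5 arrays, limma gave an unadjusted p under 0.05 to 6 higher and 14 lower of the 59, beside 26.5% of all genes in either direction.

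Genes that carry serine and its relatives across membranes made up 5 of the 10 that fell. Of 14 measured genes of serine and glycine transport and use, 5 were lower, beside 5.92% of all genes, and the other 9 not called, and the median difference of the 14 was -0.20. SFXN1, which brings serine into mitochondria, had 9.80, 9.61 and 9.83 on SB216763 arrays, against 10.38 and 10.38 on control arrays, and fell by 0.64 (SE 0.09, adjusted p = 0.00513). SLC1A4 and SLC1A5, exchangers of small neutral amino acids at the plasma membrane, fell by 0.57 (SE 0.08, adjusted p = 0.00550) and 0.50 (SE 0.10, adjusted p = 0.0148), the second by 0.33 with the mean of its probes. SLC38A2, a sodium-coupled transporter of the same kind of amino acids, fell by 0.71 (SE 0.12, adjusted p = 0.00903). The related SLC38A1, picked out after its value was seen, fell by 0.49 (SE 0.10, adjusted p = 0.0162). The groups did not overlap for any of these 5 transporters, as they did not for 41.4% of all genes. The transporters SLC6A9, SLC7A10, SFXN2 and SFXN3 and the genes of serine use, SRR, SPTLC1, SPTLC2, PTDSS1 and PTDSS2, did not pass.

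Of the nucleotide synthesis steps that use folate, 2 of 3 fell, beside 5.92% of all genes called lower. TYMS, which makes thymidylate from methylene folate, had 10.41, 10.37 and 10.49 on SB216763 arrays, against 10.89 and 11.17 on control arrays, and fell by 0.60 (SE 0.10, adjusted p = 0.00979). GART, of purine synthesis, had 9.69, 9.56 and 9.68 on SB216763 arrays, against 10.15 and 10.27 on control arrays, and fell by 0.57 (SE 0.09, adjusted p = 0.00607). ATIC, of the last steps of purine synthesis, differed by -0.08 (SE 0.10, adjusted p = 0.694).

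Of 9 measured genes of folate import, retention and reduction, 1 was called, 11.1% of the list beside 13.1% of all genes. SLC19A1, the reduced folate carrier, had 8.88, 8.95 and 8.83 on SB216763 arrays, against 9.46 and 9.28 on control arrays, and fell by 0.48 (SE 0.09, adjusted p = 0.0127). It was not called without SB216763 replicate 1 either. SLC25A32, which takes folate into mitochondria, differed by -0.32 (SE 0.10, adjusted p = 0.0891) and passed with the filter on dim genes (adjusted p = 0.04999), with a variance trend (adjusted p = 0.0358) and with array weights (adjusted p = 0.0198). DHFR2 differed by -0.18 (SE 0.09, adjusted p = 0.230) and passed with array weights (adjusted p = 0.0369). GGH, which trims the glutamate tail of folate, differed by -0.24 (SE 0.15). The list's median was -0.11. The folate receptor genes FOLR1 and FOLR2 were above background on no array.

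Other enzymes that interconvert folates did not pass: limma called 0 of 4, beside 13.1% of all genes. An unadjusted p under 0.05 was met by 0 of the 4, beside 26.5% of all genes. MTHFD2L, the paralog of MTHFD2, differed by -0.04 (SE 0.11), ALDH1L1, the cytosolic paralog of ALDH1L2, by 0.05 (SE 0.10), FTCD by 0.08 (SE 0.10) and MTFMT by 0.03 (SE 0.10), each with a sign that turned in at least 1 setting. Neither paralog was called with the enzyme it resembles, and MTHFD2L and ALDH1L1 were each above background on 4 of 5 arrays.

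In the glycine cleavage system, which feeds the same mitochondrial folate pool from glycine, AMT rose. This aminomethyltransferase had 7.43, 7.48 and 7.50 on SB216763 arrays, against 6.71 and 6.86 on control arrays, a difference of 0.68 (SE 0.08, adjusted p = 0.00262). It was the 1 call among 4 measured genes of the list, 25% beside 13.1% of all genes. The list's median was 0.10. The decarboxylase GLDC differed by 0.15 (SE 0.10, adjusted p = 0.436) and DLD, shared with other mitochondrial complexes, by -0.12 (SE 0.09, adjusted p = 0.482). DMGDH was above background on no array.

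Of 10 measured genes of the methionine cycle and transsulfuration, MAT2A was the 1 called, 10% beside 13.1% of all genes. The list median was -0.02. MAT2A, which makes S-adenosylmethionine, had 11.78, 11.67 and 11.81 on SB216763 arrays, against 12.08 and 12.18 on control arrays, and fell by 0.38 (SE 0.08, adjusted p = 0.0250). It did not pass in 6 of 14 other settings, among them the replicate number as a block and leaving out SB216763 replicate 1 or either control array. MTRR, which keeps methionine synthase active, differed by -0.15 (SE 0.09, adjusted p = 0.376). BHMT and CTH were above background on no array.

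Of 15 measured genes of ATF4 and its stress targets, 2 were higher, 1 lower and 12 not called, 20% called beside 13.1% of all genes. Their median difference was 0.02. SLC7A11, the cystine transporter subunit, had 8.40, 8.05 and 8.38 on SB216763 arrays, against a control mean of 6.08, not above background on either array, and was at least 4.29-fold higher (adjusted p = 0.000340). DDIT4, an inhibitor of mTORC1 signalling, rose by 0.66 (SE 0.12, adjusted p = 0.0126), and EIF4EBP1, the translation repressor, fell by 0.56 (SE 0.09, adjusted p = 0.00628). SESN2, another stress-induced inhibitor of mTORC1, differed by 0.30 (SE 0.10, adjusted p = 0.0874) and passed with the filter on dim genes (adjusted p = 0.0494) and with array weights (adjusted p = 0.0176). ASNS, the asparagine synthetase often measured as an ATF4 target and picked out after its value was seen, differed by 0.25 (SE 0.08, adjusted p = 0.0876). TRIB3, picked out in the same way, differed by -0.20 (SE 0.08, adjusted p = 0.172). Of the 15 differences, 9 were positive and 6 negative. The list held genes on both sides of 0, as the 9 enzymes did. Some of the 9 enzymes are themselves known ATF4 targets. The activity of ATF4 was not measured, and its part in these differences was not tested.

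**Figure D3:**
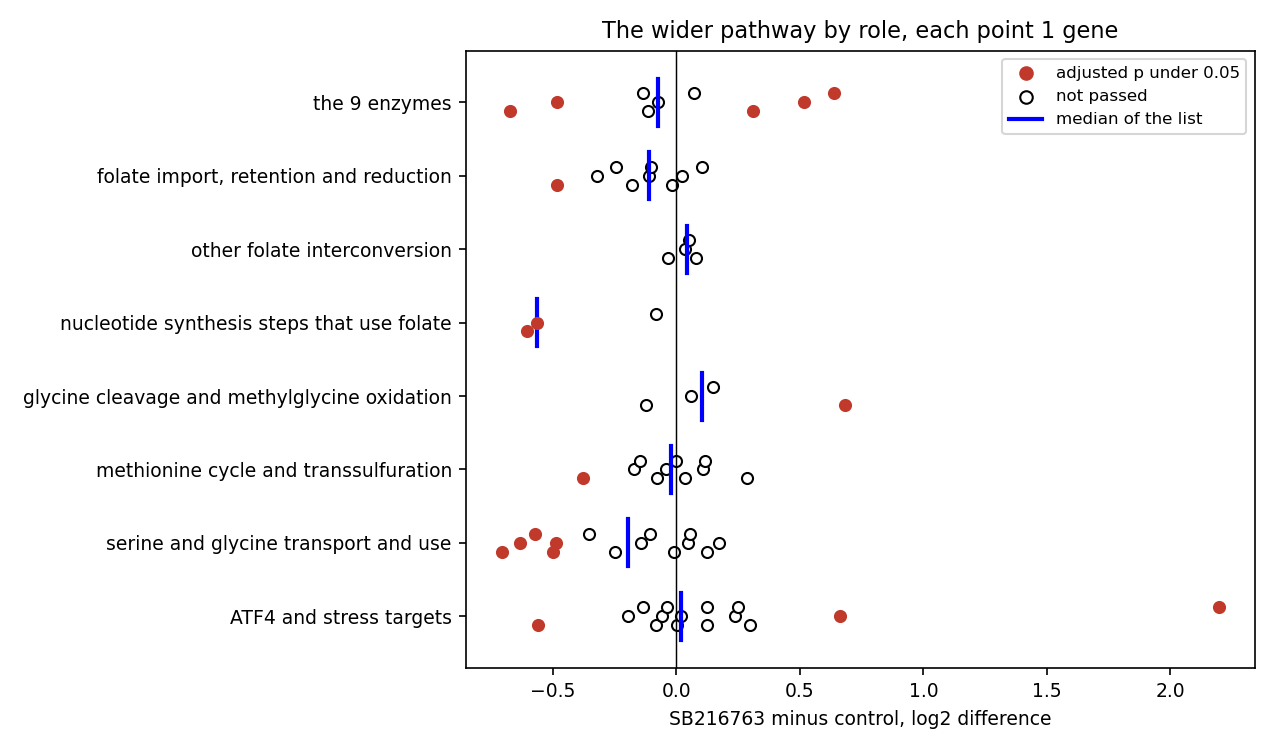
Each point is the SB216763 minus control log2 difference of 1 gene, in rows for the 9 enzymes and the 7 role lists, filled where the adjusted p was under 0.05, with the median of each row as a bar. The 5 filled points of serine and glycine transport and use lie between -0.71 and -0.49, and the filled points of the 9 enzymes lie on both sides of 0.

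The genes whose values ran most like those of MTHFD2 and PSAT1, the enzymes with the largest increase and the largest decrease, were found by Euclidean distance over the 5 arrays between log2 values centred on each gene's mean, among 12071 genes above background on all arrays. Nearest to MTHFD2 were CXCR4 at a distance of 0.032, ATF7IP at 0.036 and SLC2A9 at 0.042. CXCR4, a chemokine receptor, had 11.19, 11.08 and 11.25 on SB216763 arrays, against 10.40 and 10.68 on control arrays. Nearest to PSAT1 were MSH6 at 0.041, TRIP13 at 0.049 and MCM8 at 0.057. MSH6, of mismatch repair, had 8.87, 8.71 and 9.04 on SB216763 arrays, against 9.50 and 9.57 on control arrays. With 5 arrays in 2 groups, likeness of this kind mostly reflects a difference of equal size, and it is given as a description.

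**Figure D4:**
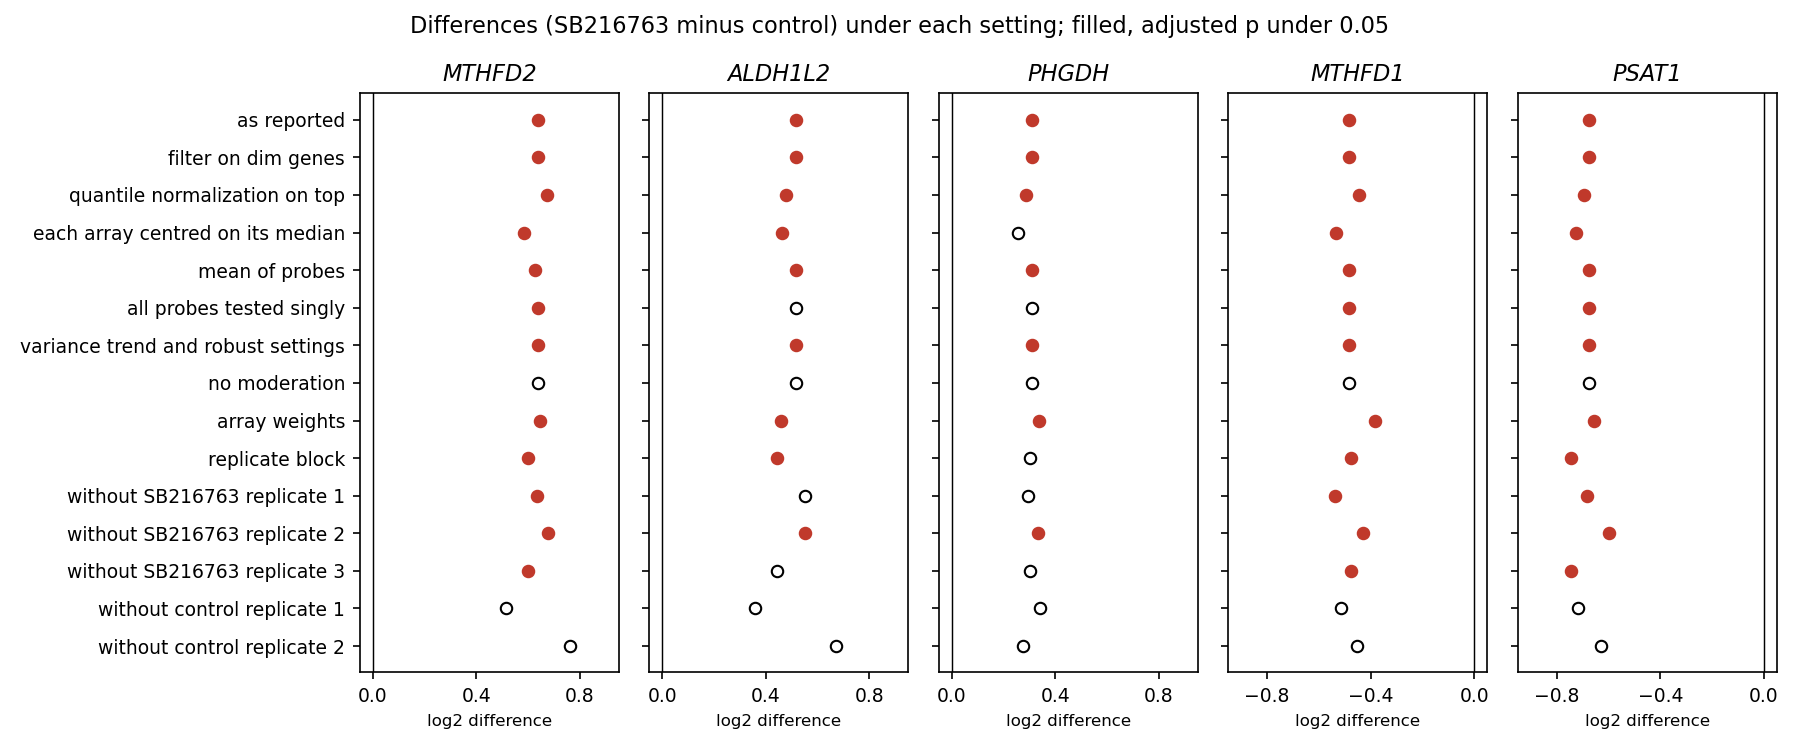
For each of the 5 called enzymes, points give the SB216763 minus control log2 difference as reported and under 14 other settings, filled where the adjusted p was under 0.05. All points keep to 1 side of 0, and the lowest rows, in which 1 control array was left out, are open for all 5 genes. Settings that change only the error or the adjustment repeat the reported difference.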

How the data were processed

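The deposited table holds 1 log2 expression value per probe and array; the log2 scale was read from the range of the values. Per the submitters' processing notes the authors used Affymetrix Expression Console (version, summarisation and build: not given in the sources used here), and no further normalization was applied. The platform annotation gave 19460 of 33297 probes a single symbol. For the 769 genes with several such probes, the probe brightest on average was taken. Samples were grouped by title. The comparison was a two-sided limma fit (lmFit, eBayes; limma version 3.58.1, R version 4.3.3) over all genes, with Benjamini-Hochberg adjustment, moderated standard errors and 95% intervals. Within-array differences had an exact permutation test (scipy 1.17.1). The fold of SLC7A11 is a lower bound: per control array, whichever was higher of its value and the background was used. The number of arrays limits the precision.

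The members and lists were chosen with earlier results of these data known. Named genes were all 9 enzymes, MYC and ATF4, up to 4 genes with the smallest p in each role list, and the 3 genes nearest to the enzyme with the largest increase and to that with the largest decrease; others given with a difference are marked in the text, and list members named only as not called or not above background fall outside the rule. Tried as alternatives were quantile normalization, median centring, a filter on dim genes, a gene's probes averaged, every probe singly, robust settings with a variance trend, array weights, no moderation, the replicate number as block, and leaving out each array. The fit was tested on simulated data.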

Additional observations from a re-analysis of the deposited data

Results flagged for a closer look

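The second probe of MTHFD2, which the comparison of the 9 enzymes did not use, gave a signal above that of the control arrays on all 3 SB216763 arrays, with a difference of 0.62 (SE 0.11, adjusted p = 0.0376 by limma with every probe tested singly). None of the other 6 unused probes that name an enzyme of the 9 passed that test. No group had enough arrays for a check of single outlying arrays.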

How the results depend on the processing

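The differences of the 9 enzymes kept their sign in all 14 alternatives. The filter on dim genes, every probe singly, the variance trend and no moderation change only the error or the adjustment. The difference, and so its sign, was fixed there in advance. Averaging probes also leaves it unchanged for an enzyme with 1 probe. In 23 of 126 combinations of enzyme and alternative a call was lost, and none was gained. With every probe tested singly, 1 enzyme was called higher. Without moderation limma's ordinary fit called 0 enzymes higher and 0 lower, 0 and 0 genes of the wider pathway, and 126 and 125 of all genes; at an unadjusted p under 0.05 it gave 3 higher and 2 lower enzymes. With array weights 7 genes of the wider pathway and 2568 of all genes were higher and 2152 lower. Leaving out 1 array at a time gave 0 to 3 enzymes higher and 0 to 2 lower, 0 to 4 wider pathway genes higher and 0 to 10 lower, and 0 to 1680 of all genes higher and 0 to 1179 lower. The lowest counts came without either control array, which leaves 1 control array assumed to vary like the SB216763 arrays. All genes called higher numbered 540 and lower 453 without SB216763 replicate 1, and 808 were higher without SB216763 replicate 3. In both cases 1 enzyme was called higher. Leaving out SB216763 replicate 2 instead gave 1680 of all genes higher and 1179 lower, with 3 enzymes higher and 2 lower. The cause of the losses without the other arrays was not tested.

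Differences near 0 turned sign: MTFMT to -0.0225 after quantile normalization, -0.0177 with median centring and -0.0498 with the replicate block, and ALDH1L1 to -0.000218 with median centring and -0.0407 with array weights. Over the arrays left out, MTFMT ran from -0.0498 to 0.10, ALDH1L1 from -0.0544 to 0.16, FTCD from -5e-05 to 0.12, MTHFD2L from -0.11 to 0.0573 and ATF4 from -0.13 to 0.0130. Whether same-numbered arrays belong together is not stated. Their deviations from the group means were correlated at -0.05 and -0.10. With 2 control arrays, the deviations of one mirror those of the other, so these values cannot settle a pairing. The replicate block gives the same differences as leaving out SB216763 replicate 3, whose number no control array shares. It is thus not a separate check of their size or sign. With the replicate block, 941 of all genes were higher and 889 lower. Among the genes named, PHGDH (adjusted p = 0.127) and MAT2A were no longer called, while BHMT was. The within-array differences of paired enzymes kept their sign in every alternative run. Centring each array on its median cancels in such a difference, so that run could not turn a sign. Averaging probes could alter only MTHFD2 minus MTHFD1, since the other paired enzymes have no further probe to average.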
